A study of Mus musculus with 6 samples.

Results

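Collagens are the main structural proteins of the extracellular matrix, and each collagen molecule is built from chains that wind around each other in a triple helix whose repeating unit begins with glycine. Chain genes were taken as every protein-coding gene whose symbol is Col, a number, the letter a and a number, which gave 44 of the 31053 genes in the table. They were divided by the assembly they form into 8 fibrillar chains (types I, II, III, XI, XXIV and XXVII), 3 type V chains, 8 basement membrane chains (type IV with Col15a1 and Col18a1), 6 type VI chains, 9 FACIT chains, which sit on the surface of fibrils, 3 network chains (types VIII and X), 4 transmembrane chains and 3 others (types VII, XXVI and XXVIII).

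Fibrillar collagens form the cables of tendon and connective tissue, type IV collagen forms the sheet of the basement membrane that encloses each muscle fiber together with its stem cells, and type VI collagen forms beaded filaments between the sheet and the fibrils. Type V collagen starts fibrils of type I collagen. In muscle stem cells (MuSCs) it is also known as a target of Notch signaling whose product, acting through the calcitonin receptor Calcr, helps to keep the cells quiescent.

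The study asked how type 2 deiodinase (D2, encoded by Dio2), the enzyme that makes the active thyroid hormone T3 from T4, acts in quiescent MuSCs (qMuSCs). RNA of qMuSCs was sequenced in 1 library per animal, from 3 WT (c124, c129, c130) and 3 cD2KO (fl125, fl126, fl128) animals. All 6 mice were treated with tamoxifen and carried the Pax7nGFP/+ reporter used to sort the cells and Dio2Fl/Fl, and the MuSC isolation protocol used limb muscles of mice 3 to 4 months old. WT mice were Pax7+/+ and cD2KO mice carried Pax7-CreERT2/+, so that the groups differed in the Cre allele at Pax7 as well as in the deletion, which this Cre directs to cells that express Pax7. Values below are given in the order c124, c129, c130 for WT and fl125, fl126, fl128 for cD2KO, unless another order is stated.

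The libraries held 2184073 to 3897787 counts. A level is given in CPM, the count divided by the TMM-scaled library size and put on one common scale for all mice, on which 3 counts were worth 0.768 to 1.36 CPM. Dio2 had 21, 5 and 10 counts in WT and 15, 5 and 1 counts in cD2KO, so its groups overlapped, its deletion could not be read from these counts, and it was too low to be tested. MuSC markers were present in every library, Pax7 averaging 350.4 ± 121 CPM in the WT and 485 ± 189 CPM in the cD2KO mice (SD, n = 3), but Acta2 of mural cells was higher than Pax7, at 2658 ± 1212 and 5973 ± 1766 CPM. Since collagens are made by many cell types of muscle, a lower chain level in sorted bulk RNA can be fewer cells of a type or less RNA per cell, which cannot be told apart here. The cD2KO library fl125 stood apart. Smallest of the 6 libraries, at 2184073 counts, it had the highest summed level of MuSC markers, 3972 CPM against 2196 to 3004 CPM in the others. Immune markers summed to 240 CPM in it against 2612 CPM or more in each other library, and it was the lowest of the 6 libraries for 17 of the 35 chains tested (48.6%) and for 23.1% of all 11633 genes tested.

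Upstream sequence is shown for the 2 called chains whose promoter is in the RefSeq table (GRCm38.p6, the mm10 assembly), Col1a2 and Col4a6, and for Col4a5, which is transcribed away from Col4a6 on chromosome X and was not called. Each stretch lies before the RefSeq start and holds no annotated exon. That of Col1a2 lies inside the GENCODE bounds of the gene given below, between exons of a transcript that starts further upstream. They are chr6:4505370-4505492 (plus strand, ending 126 bases before the start), chrX:141474077-141474326 (minus strand, reaching the start) and chrX:141475169-141475384 (plus strand, ending 35 bases before the start), written 5′ to 3′ along the gene's own strand. Capitals mark the motifs found.
Col1a2: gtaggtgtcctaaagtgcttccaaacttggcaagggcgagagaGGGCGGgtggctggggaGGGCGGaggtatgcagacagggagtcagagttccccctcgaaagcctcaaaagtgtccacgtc
Col4a6: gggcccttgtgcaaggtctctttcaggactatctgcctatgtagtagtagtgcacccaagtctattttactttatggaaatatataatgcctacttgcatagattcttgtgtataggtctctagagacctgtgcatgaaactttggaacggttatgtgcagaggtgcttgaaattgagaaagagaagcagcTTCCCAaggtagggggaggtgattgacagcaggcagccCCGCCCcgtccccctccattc
Col4a5: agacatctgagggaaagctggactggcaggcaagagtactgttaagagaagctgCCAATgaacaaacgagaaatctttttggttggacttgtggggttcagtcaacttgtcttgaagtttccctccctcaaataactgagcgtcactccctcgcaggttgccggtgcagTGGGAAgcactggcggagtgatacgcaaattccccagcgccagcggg
Capitals in the Col1a2 stretch mark 2 GC boxes (GGGCGG). The Col4a6 stretch holds the core of the site of the Notch effector Rbpj (TGGGAA) and a GC box, both read on the opposite strand, and the Col4a5 stretch a CCAAT box (CCAAT) and an Rbpj core on its own strand. Both strands were searched over the 250 bases before the start, and the bases not printed, which lie nearer to the start, also held a CCAAT box of Col1a2 and a GC box of Col4a5. Among 38 windows of 35 matched chain genes the GC box was in 57.9% (32.7% of all 32851 windows), the CCAAT box in 34.2% (33.8%), the TATA box (TATAAA) in 13.2% (12.4%), the Rbpj core in 31.6% (21.6%) and the thyroid hormone receptor half-site (AGGTCA) in 21.1% (14.02%). These are matches of letters and not measured sites.

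Of the 44 chains, 43 had at least 1 count in a library and 35 passed the minimum of a mean above 10 normalized counts. With edgeR's quasi-likelihood test at an unadjusted p under 0.05, Col1a2 and Col5a2 were lower and Col4a6 was higher in cD2KO. That is 5.71% of the tested chains lower and 2.86% higher, while 6.62% of all genes tested were lower and 5.34% higher, so chains were not called more often than genes at large. After Benjamini-Hochberg adjustment over all genes no chain passed 0.05 or 0.1, and the smallest adjusted p was 0.202. The adjusted p depended on the fit: with no minimum count it was 0.00864 for Col4a6 and 0.0198 for Col1a2, and with DESeq2's Wald test 0.0946 and 0.0936. The median log2 fold change (cD2KO against WT) of the 35 chains was -0.08, beside -0.02 over all genes, with 22 chains below 0 and 13 above, and 20 lay within 1 standard error (SE) of 0. All 3 cD2KO mice were below all 3 WT mice for 3 chains (Col5a2, Col15a1 and Col6a5), as for 10.04% of all genes tested, and above them for 1 chain (Col24a1), as for 8.05% of all genes. Over the tested chains the spread between mice was wider in cD2KO, with a median coefficient of variation of 31.6% against 23.5% in WT (24.7% and 22.0% over all genes). The class median was lower in cD2KO for the fibrillar chains, at 21.3% against 34.9% in WT. It was also lower for type V and for the group of types VII, XXVI and XXVIII. For the basement membrane, type VI, network and transmembrane chains it was higher in cD2KO. Both fibrillar medians were the values of Col1a2. Among tested fibrillar chains only Col1a2 and Col3a1 were narrower in cD2KO, and among type V chains only Col5a3. The FACIT medians were nearly equal, at 31.6% in cD2KO and 31.7% in WT.

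**Figure D1:**
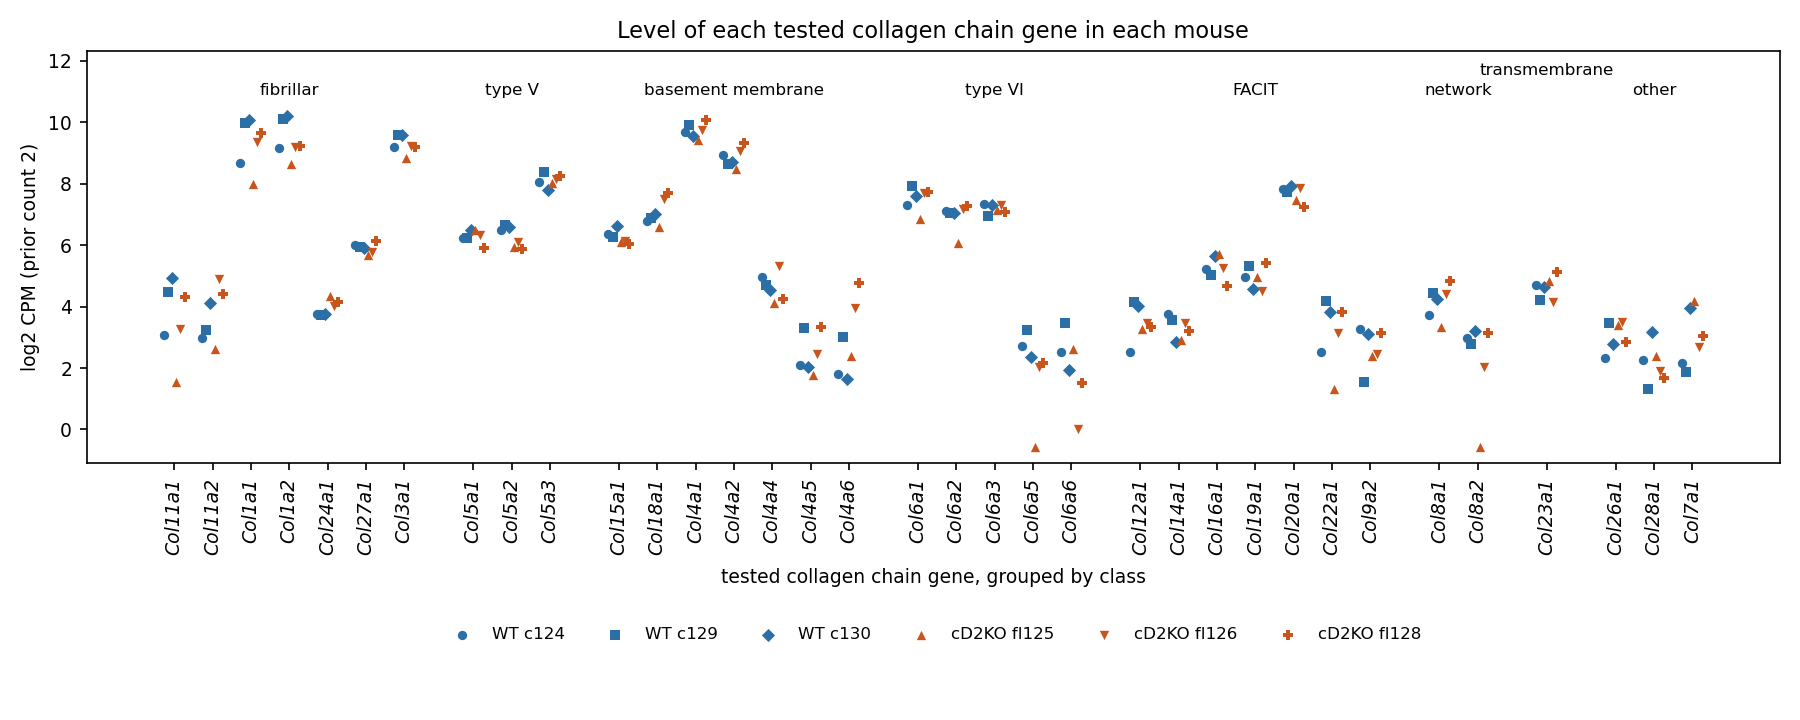
Level of each of the 35 tested chain genes (x axis, grouped by class) as log2 CPM with a prior count of 2 (y axis) in the 3 WT (blue) and 3 cD2KO mice (orange), 1 point per mouse. Col4a1, Col1a1, Col1a2 and Col3a1 lie highest on this scale, which is not divided by length, and fl125 (upward triangles) is the lowest point for 17 chains.

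**Figure D2:**
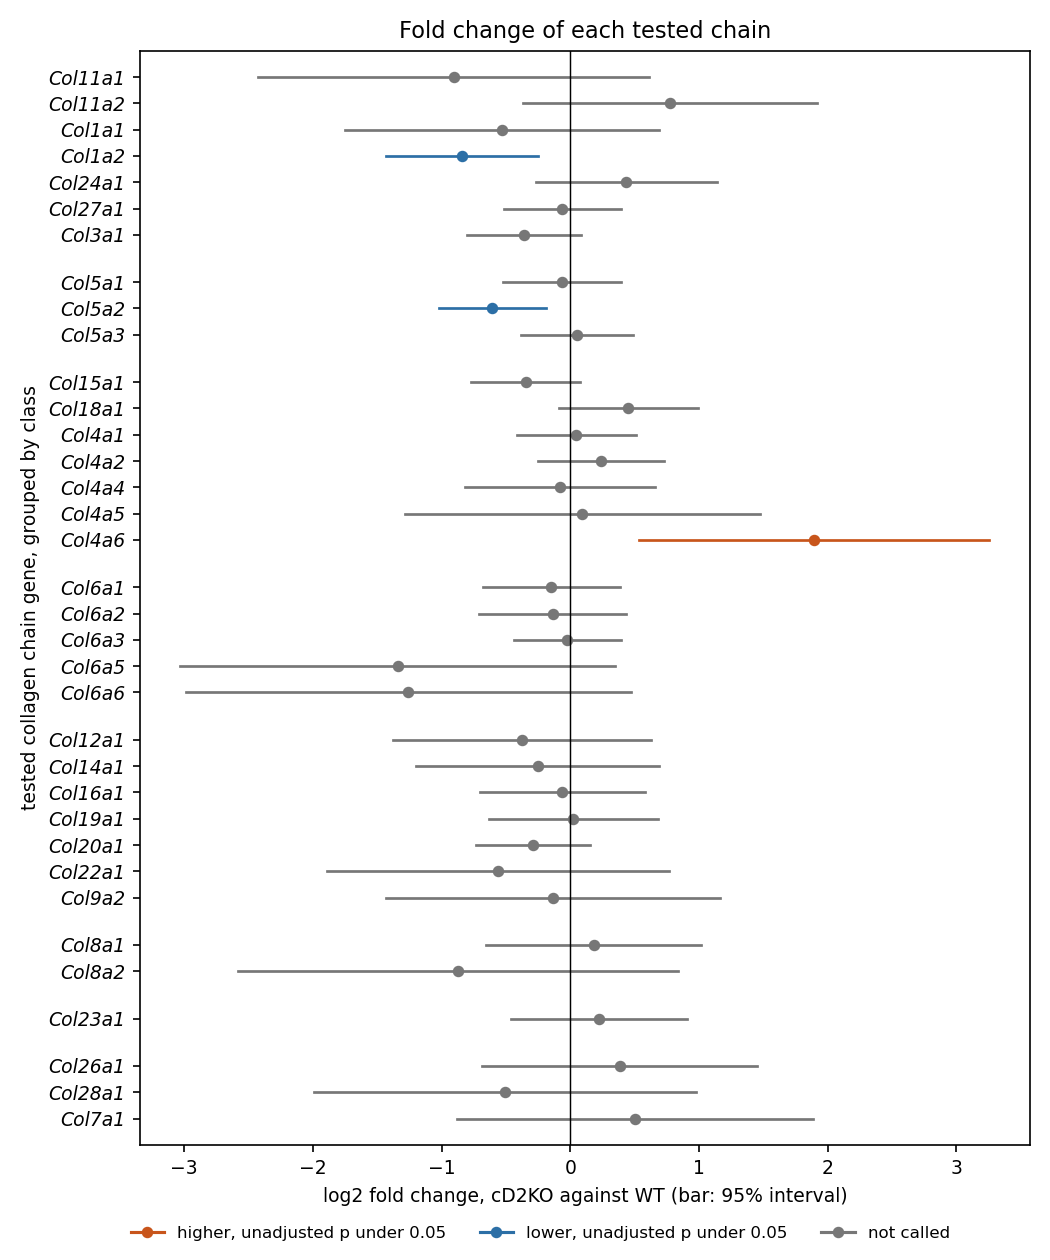
Log2 fold change of each tested chain in cD2KO against WT (x axis), as a point with its 95% interval, for 3 mice per group. The intervals of Col1a2 and Col5a2 lie below 0 and that of Col4a6 above 0, and all others cross 0.

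Per length of merged exons, Col4a1 was the most abundant chain, with a mean over the 6 mice of 115 CPM per kb, followed by Col1a1 (107 CPM per kb), Col4a2 (71.7 CPM per kb), Col3a1 (64.1 CPM per kb), Col1a2 (59.4 CPM per kb), Col6a1 (42.9 CPM per kb), Col5a3 (40.8 CPM per kb) and Col20a1 (40.5 CPM per kb). Neighbours among these 8 chains differed by less than the larger of their SDs over the 6 mice. This order between genes holds only if reads came from the whole transcript, which the sources used here do not state. Chain counts were 0.357 to 0.627% of a library, with 0.449, 0.627 and 0.606% in WT and 0.357, 0.493 and 0.514% in cD2KO. The share was lowest in fl125 and the groups overlapped.

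Type I collagen, the main fibril of tendon and connective tissue, is made of 2 Col1a1 chains and 1 Col1a2 chain. Col1a2 (ENSMUSG00000029661, chr6:4504814-4541544) was measured at 567, 1102 and 1169.9 CPM in WT and 399, 586 and 602 CPM in cD2KO. The WT mice c129 and c130 were well above all others, while c124 lay among the cD2KO mice, so the groups overlapped. The group means were 947 ± 330.1 and 529 ± 113 CPM (SD, n = 3), and it fell by 0.84 on the log2 scale (SE 0.27, edgeR adjusted p = 0.214). Without the WT mouse c130 the log2 fold change was -0.63 and the call was lost (adjusted p = 0.584), and without fl125 it was -0.63 (adjusted p = 0.284).

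Its partner chain Col1a1 (ENSMUSG00000001506, chr11:94936224-94953042) was at 405, 1009 and 1077 CPM in WT and 256, 661 and 807 CPM in cD2KO. The low mice were again c124 and fl125, and the groups overlapped. The log2 fold change was -0.53 (SE 0.51) and did not pass the test (adjusted p = 0.756). Within a mouse, the ratio of Col1a1 to Col1a2 counts was 0.714, 0.915 and 0.921 in WT and 0.641, 1.13 and 1.34 in cD2KO, and the groups overlapped.

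Col3a1 (ENSMUSG00000026043, chr1:45311538-45349706), which forms the thin fibrils of soft tissue, was at 584, 770.1 and 769.8 CPM in WT and 460.1, 601 and 592 CPM in cD2KO. The highest cD2KO mouse stood above the lowest WT mouse, and the log2 fold change was -0.36 (SE 0.21, adjusted p = 0.526). Of the minor fibrillar chains, Col11a1 and Col11a2, which join fibrils of cartilage and other tissues, had log2 fold changes of -0.91 (SE 0.67) and 0.77 (SE 0.53), from no more than 86 counts in any library. Col24a1 was at 12.8, 12.6 and 12.8 CPM in WT and 19.5, 15.4 and 16.96 CPM in cD2KO. All cD2KO mice were above all WT mice, yet the log2 fold change of 0.44 (SE 0.33) did not pass the test (adjusted p = 0.654) at 34 to 54 counts per library. Col27a1 was at -0.06 (SE 0.21).

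Col2a1, the fibril chain of cartilage, missed the minimum with a mean of 9.12 normalized counts. It had 25, 12 and 20 counts in WT and 0, 3 and 1 counts in cD2KO, and no cD2KO mouse reached the lowest WT mouse. In the fit with no minimum its log2 fold change was -3.51 (SE 1.07, adjusted p = 0.039).

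Summed over the 8 fibrillar chains, the level was 1653, 2989 and 3142 CPM in WT and 1193, 1958 and 2128 CPM in cD2KO. The means were 2595 ± 819 and 1759 ± 498 CPM (SD, n = 3), a log2 ratio of -0.56, with c124 below 2 of the 3 cD2KO mice. Without fl125 the log2 ratio was -0.30. The summed level of tenocyte markers was also lowest in fl125 (215 CPM) and c124 (366 CPM) and between 601 and 1146 CPM in the other 4. Fmod and Thbs4 made up most of this sum in every mouse. Tnmd, Fmod, Thbs4 and Kera were each lowest in fl125, with c124 next, but Scx, Comp and Mkx did not keep this order. Scx was lowest in fl128 (1.26 CPM) and Mkx was highest in fl125 (1.36 CPM). Comp was lower in fl126 (8.55 CPM) than in fl125 (9.51 CPM). The part of tendon cells in the fibrillar level was not tested.

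**Figure D3:**
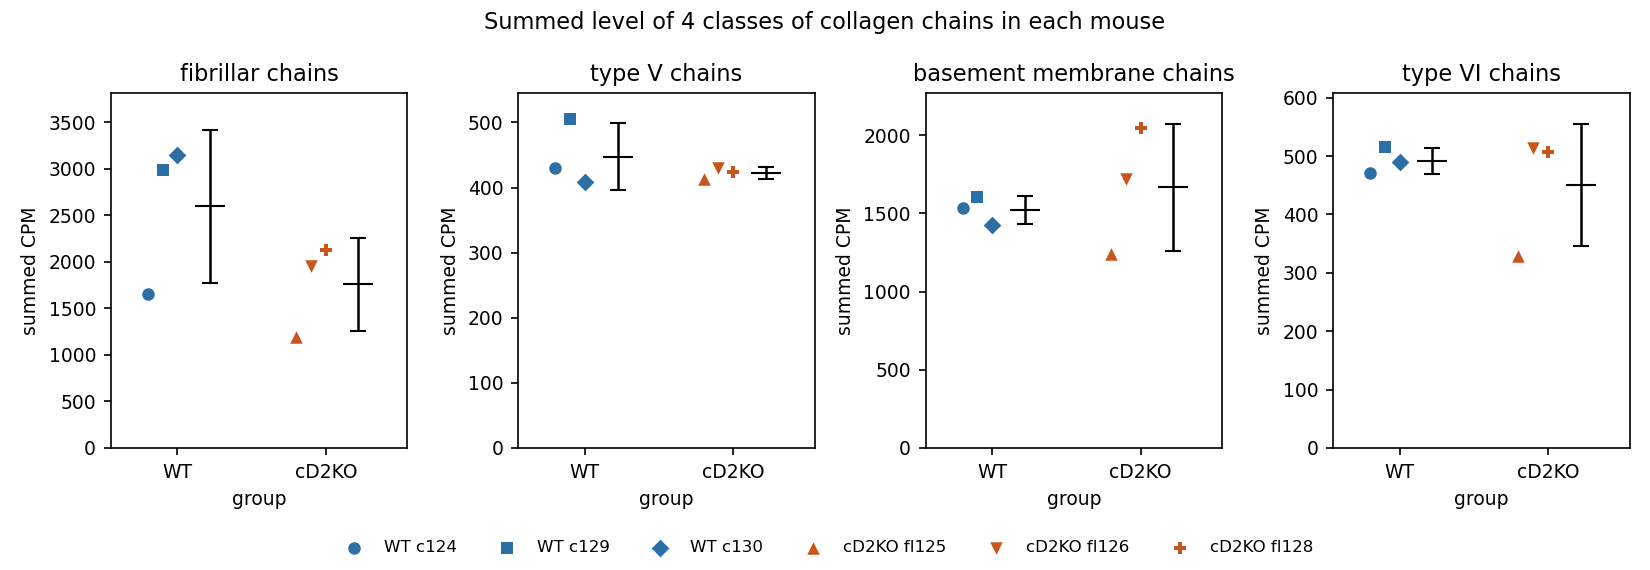
Summed CPM (y axis, from 0) of the fibrillar, type V, basement membrane and type VI chains in each mouse (points) with the mean and SD of the 3 WT and 3 cD2KO mice (bars). The groups overlap in all 4 classes, and fl125 is the lowest cD2KO mouse in each.

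Of the 3 type V chains, Col5a2 alone was called. Col5a2 (ENSMUSG00000026042, chr1:45374321-45503282) encodes the chain that pairs with Col5a1 in the common form of type V collagen. It was at 89.6, 100.04 and 95.5 CPM in WT and 60.2, 68.7 and 58.4 CPM in cD2KO. Every cD2KO mouse was below every WT mouse, and the spread within each group was small, with means of 95.1 ± 5.23 and 62.5 ± 5.52 CPM (SD, n = 3). It fell by 0.60 on the log2 scale (SE 0.19, 95% interval -1.02 to -0.19, edgeR adjusted p = 0.202). Its unadjusted p stayed under 0.05 in each fit with another scaling, filter or test and in each fit that left out a mouse. The adjusted p over these fits ranged from 0.157 to 0.577.

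Col5a1 (ENSMUSG00000026837, chr2:27886425-28039514), which encodes the chain that every form of type V collagen contains, was at 75.3, 75.3 and 88.6 CPM in WT and 89.7, 79.7 and 59.7 CPM in cD2KO. Its highest and its lowest mouse were both cD2KO, and the log2 fold change was -0.07 (95% interval -0.52 to 0.39). Col5a3 (ENSMUSG00000004098, chr9:20770050-20815067), the most abundant of the class per length, was at 265, 329.7 and 224 CPM in WT and 263, 281 and 306 CPM in cD2KO, with a log2 fold change of 0.05 (95% interval -0.38 to 0.49). Neither interval reached the estimate for Col5a2, but both overlapped the interval of Col5a2, and the difference between the chains was not tested.

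The proportion of Col5a2 to the other chains was seen within each mouse. The ratio of Col5a1 to Col5a2 counts was 0.840, 0.753 and 0.928 in WT and 1.49, 1.16 and 1.02 in cD2KO, and that of Col5a3 to Col5a2 was 2.96, 3.30 and 2.34 in WT and 4.36, 4.09 and 5.24 in cD2KO. All cD2KO mice were above all WT mice in both ratios, which share the Col5a2 counts and so are not independent of its call. With 3 mice per group an exact permutation test of a ratio could not go below p = 0.1, and none was run. Since Col5a3 made up most of the counts, the summed level of the class was 429.9, 505 and 408 CPM in WT and 413, 429.9 and 424 CPM in cD2KO, a log2 ratio of -0.08, which became 0.03 without c129.

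Col5a2 lies tail to tail with Col3a1 on chromosome 1, with 24614 bases between the genes. The log2 fold changes of the pair were -0.60 and -0.36, and the difference between them was not tested.

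The basement membrane chains held 1 call, and Col4a1 had the highest mean CPM over the 6 mice of any chain. Col4a1 and Col4a2 make the common form of type IV collagen and start 21 bases apart on opposite strands of chromosome 8. Col4a1 (ENSMUSG00000031502, chr8:11198423-11312826) was at 822, 966 and 754 CPM in WT and 689.7, 864 and 1071 CPM in cD2KO. Col4a2 (ENSMUSG00000031503, chr8:11312805-11449287) was at 485, 403 and 418 CPM in WT and 357, 539 and 646 CPM in cD2KO. In both chains fl125 was the lowest and fl128 the highest of all 6 mice, and the WT mice lay between them. The log2 fold changes were 0.05 (95% interval -0.42 to 0.51) and 0.24 (95% interval -0.25 to 0.73), and the ratio of Col4a1 to Col4a2 counts was 1.69, 2.40 and 1.80 in WT and 1.93, 1.603 and 1.66 in cD2KO. Without fl125, Col4a2 passed the threshold at a log2 fold change of 0.48 (adjusted p = 0.234).

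Col4a6 (ENSMUSG00000031273, chrX:141165403-141474076), a chain that joins Col4a5 in the basement membrane of smooth muscle and some epithelia, had 11, 20 and 7 counts in WT and 10, 43 and 85 counts in cD2KO. In CPM these were 2.82, 7.38 and 2.42 in WT and 4.53, 14.7 and 26.7 in cD2KO. The mice fl126 and fl128 were above all WT mice, and fl125 was within the WT range. The means were 4.21 ± 2.76 and 15.3 ± 11.1 CPM (SD, n = 3), and it rose by 1.90 on the log2 scale (SE 0.63, 95% interval 0.53 to 3.26, edgeR adjusted p = 0.228). Without fl128 the log2 fold change was 1.22 and the call was lost (adjusted p = 0.64), and without fl125 it was 2.36 (adjusted p = 0.0309).

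The neighbouring Col4a5 (ENSMUSG00000031274, chrX:141475385-141689234) starts 1309 bases away on the other strand, with its upstream stretch printed above beside that of Col4a6. It had 14, 25 and 10 counts in WT and 6, 14 and 30 counts in cD2KO. The groups overlapped over nearly their whole range, and the log2 fold change was 0.09 (95% interval -1.29 to 1.47). This interval does not reach the estimate for Col4a6 but overlaps the interval of Col4a6, and the difference between the pair was not tested.

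The summed level of mural cell markers was higher in every cD2KO mouse than in any WT mouse. It was 6371 to 10604 CPM in WT and 12361 to 18294 CPM in cD2KO, with fl125 the lowest and fl128 the highest cD2KO mouse, as for Col4a6. The WT mice did not keep this match, since c129 had their lowest sum but their highest Col4a6, at 7.38 CPM. The sum of fl125 was above the WT range, while its Col4a6 level was within that range. Of 14 markers 6 rose (42.9%, beside 5.34% of all genes) and none fell. Those that rose were the contractile genes Acta2 (log2 fold change 1.17), Cnn1 (1.44), Myh11 and Tagln, with Notch3 and Mcam, and Acta2 and Myh11 made up most of the sum in every mouse. None of the remaining mural markers passed the test. They were Kcnj8 (-0.36), Abcc9 (-0.23), Pdgfrb (-0.06), Vtn (-0.06), Rgs5 (0.003), Cspg4 (0.25), Higd1b (0.34) and Ndufa4l2 (0.43). Mural cells include smooth muscle cells, and the part of these markers in the Col4a6 level was not tested. Col4a5 and Col4a6 are X-linked, and all 6 libraries held Ddx3y of the Y chromosome (258 to 418 counts) and no more than 1 count of Xist. Ddx3y, Kdm5d and Uty of the Y chromosome were not called. Eif2s3y, also Y-linked, was at 24.6, 33.6 and 27.3 CPM in WT and 9.06, 7.87 and 11.9 CPM in cD2KO (log2 fold change -1.56, edgeR adjusted p = 0.0885).

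Col18a1 (ENSMUSG00000001435, chr10:77052178-77166548), a basement membrane zone chain whose end fragment is endostatin, was at 109, 119 and 128 CPM in WT and 96.5, 183 and 205 CPM in cD2KO. It followed the order of the cD2KO mice seen for Col4a6, with fl125 below all WT mice and the other 2 above them. The log2 fold change was 0.45 (SE 0.25, adjusted p = 0.514). Without fl125 it was 0.75 (adjusted p = 0.0455), and without fl128 it was 0.24 (adjusted p = 0.844).

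Col15a1, its relative at the outer face of the membrane, was at 82.2, 76.8 and 98.99 CPM in WT and 68.8, 69.1 and 65.01 CPM in cD2KO. All cD2KO mice were below all WT mice, and the log2 fold change of -0.35 (SE 0.20) did not pass the test (adjusted p = 0.524). Col4a4, a chain of the kidney filter, was at -0.08 (SE 0.34). Col4a3, which starts 72 bases from it on the other strand and joins it in the same molecule, was not tested, with 1, 0 and 3 counts in WT and 4, 9 and 5 counts in cD2KO.

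The 8 basement membrane chains summed to 1536, 1606 and 1428 CPM in WT and 1238, 1717 and 2044 CPM in cD2KO, with means of 1523 ± 89.7 and 1666 ± 405 CPM (SD, n = 3). The cD2KO mice lay on both sides of the WT range, and the log2 ratio of 0.13 was 0.34 without fl125 and -0.04 without fl128.

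**Figure D4:**
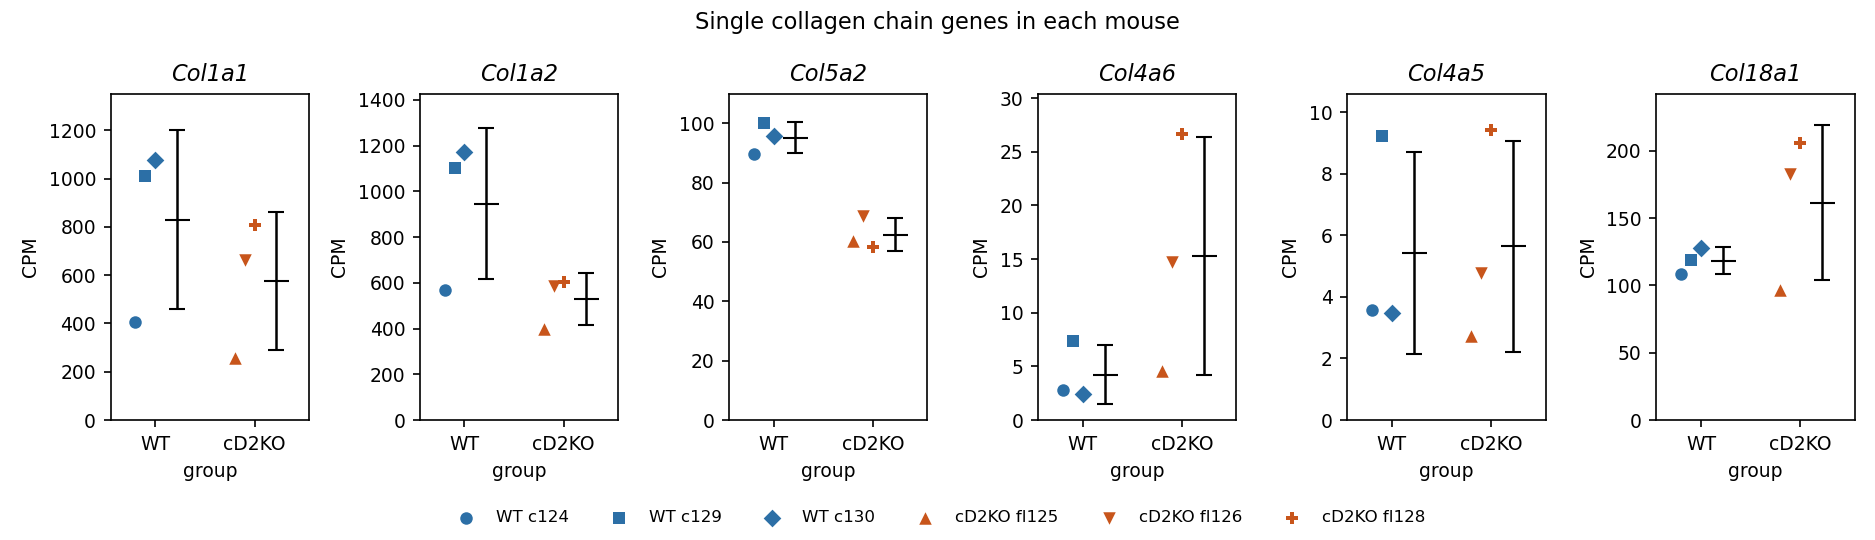
CPM (y axis, from 0) of Col1a1, Col1a2, Col5a2, Col4a6, Col4a5 and Col18a1 in each mouse (points) with the mean and SD of 3 mice per group (bars). Only Col5a2 shows groups that do not overlap; c124 and fl125 are the lowest mice of their groups for Col1a1 and Col1a2, and fl128 is the highest mouse for Col4a6 and Col18a1.

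Type VI collagen is assembled from Col6a1, Col6a2 and one further chain, most often Col6a3, and is made by fibroblasts of the muscle. Col6a1 (ENSMUSG00000001119, chr10:76708792-76726168) was at 159.5, 240.3 and 193 CPM in WT and 116, 207 and 212 CPM in cD2KO. Col6a2 (ENSMUSG00000020241, chr10:76595762-76623630), next to it on the same strand of chromosome 10, was at 138, 133 and 132 CPM in WT and 67.02, 144 and 154 CPM in cD2KO. For both chains fl125 was below every other mouse, and fl126 and fl128 were within or above the WT range. Col6a3 (ENSMUSG00000048126, chr1:90765923-90843971) was at 162, 123 and 157 CPM in WT and 141, 159 and 135 CPM in cD2KO, with c129 the lowest mouse.

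None of these 3 chains passed the test, with log2 fold changes of -0.15 (95% interval -0.68 to 0.39) for Col6a1, -0.14 (95% interval -0.71 to 0.43) for Col6a2 and -0.02 (95% interval -0.44 to 0.39) for Col6a3. The ratio of Col6a1 to Col6a2 counts was 1.16, 1.81 and 1.47 in WT and 1.73, 1.44 and 1.38 in cD2KO. Summed type VI chains were at 471, 516 and 489 CPM in WT and 329, 513 and 507 CPM in cD2KO, a log2 ratio of -0.13, which was 0.09 without fl125.

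Col6a5 and Col6a6, alternatives to Col6a3 that lie in a cluster with Col6a4 on chromosome 9, were near the limit of detection. Col6a5 had 23, 24 and 13 counts in WT and 0, 10 and 12 counts in cD2KO, and Col6a6 had 20, 28 and 9 counts in WT and 12, 1 and 7 counts in cD2KO. All cD2KO mice were below all WT mice for Col6a5 and the groups overlapped for Col6a6. Their log2 fold changes of -1.34 (SE 0.79, adjusted p = 0.538) and -1.26 (SE 0.81, adjusted p = 0.582) did not pass the test. Col6a4 had 2 counts in c129, 1 in fl128 and 0 in the other 4 libraries.

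Outside these 4 classes none of the 13 tested chains was called. The lowest p belonged to Col20a1, Col8a2 and Col22a1. Col20a1, a FACIT chain and the eighth chain by level per length, was at 229, 212 and 245 CPM in WT and 176, 235 and 151 CPM in cD2KO, with fl126 inside the WT range (log2 fold change -0.29, SE 0.21, adjusted p = 0.643). Col22a1, a FACIT chain of the muscle-tendon junction, was at 5.12, 17.4 and 13.5 CPM in WT and 1.81, 8.21 and 13.5 CPM in cD2KO, with c124 and fl125 the lowest, as for Col1a1 (log2 fold change -0.56, SE 0.61). Col8a2, a network chain known from the cornea, was at 7.17, 6.28 and 8.65 CPM in WT and 0, 3.42 and 8.16 CPM in cD2KO, where fl125 had 0 counts and fl128 lay within the WT range (log2 fold change -0.87, SE 0.79).

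Among the other FACIT chains, Col12a1 was at -0.37, Col14a1 at -0.25, Col16a1 at -0.06, Col19a1 at 0.02 and Col9a2 at -0.13 on the log2 scale. Col8a1 was at 0.18, the transmembrane chain Col23a1 at 0.22, Col7a1 of anchoring fibrils at 0.50, Col26a1 at 0.38 and Col28a1 at -0.51. All 10 lay within 1 SE of 0.

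The 9 chains not tested were Col2a1, Col4a3 and Col6a4, given above, and Col9a1, Col9a3, Col10a1, Col13a1, Col17a1 and Col25a1. The last 6 had no more than 17 counts in any library, and Col10a1, the chain of growth plate cartilage, had 0 in all 6, where 3 counts would be worth at most 1.36 CPM. In the fit with no minimum, none of the last 6 that had counts passed the test. The use of strand in counting is not given in the sources used here, so reads from bases shared with a gene on the other strand cannot be told apart. Such bases were 6.1% of the merged exons of Col9a3 (with Tcfl5), 5.6% of those of Col4a3 (with C430014B12Rik) and at most 1.9% with any 1 gene for the other chains, where Col5a1, Col4a2 and Col6a4 each shared bases with a pair of such genes.

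Genes that fold, trim, crosslink or bind collagen were read from the same fit. Of 57 such genes 51 were tested, 2 were higher and 2 lower (3.92% each, beside 5.34% and 6.62% of all genes), and their median log2 fold change was -0.00193. None of the 20 tested folding and modification genes passed the test. Serpinh1, the chaperone of the triple helix, was at -0.13 (95% interval -0.62 to 0.36) and P4ha1, a subunit of the prolyl hydroxylase that stabilizes it, at -0.07 (95% interval -0.69 to 0.56). Of 17 genes of trimming, crosslinking and assembly, Lum, a proteoglycan that controls fibril width, fell from 28.4, 40.6 and 40.1 CPM in WT to 4.98, 19.8 and 24.8 CPM in cD2KO (log2 fold change -1.10, adjusted p = 0.343), a call that was lost without c129 (adjusted p = 0.685) and without c130 (adjusted p = 0.615). The crosslinking enzyme Lox was at -0.04 (SE 0.41).

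Of 14 tested collagen receptors, 2 rose (14.3%, beside 5.34% of all genes) and 1 fell (7.14%, beside 6.62%). Itga7, the integrin chain that binds laminin in muscle and that was listed with the receptors, was at 236, 152 and 227 CPM in WT and 312, 329 and 367 CPM in cD2KO, with every cD2KO mouse above every WT mouse (log2 fold change 0.71, SE 0.21, adjusted p = 0.171). Ddr2, a receptor kinase for fibrillar collagen, was at 109.8, 98.2 and 114 CPM in WT and 147, 144 and 141 CPM in cD2KO, and the groups did not overlap either (log2 fold change 0.42, adjusted p = 0.38). Its call was lost without c124 (adjusted p = 0.46), c129 (adjusted p = 0.677), fl126 (adjusted p = 0.593) or fl128 (adjusted p = 0.55). Adgrg1, an adhesion receptor that binds type III collagen, fell from 24.1, 42.1 and 59.9 CPM in WT to 17.2, 17.8 and 12.9 CPM in cD2KO (log2 fold change -1.39, SE 0.34, adjusted p = 0.112). With no minimum count Adgrg1 (adjusted p = 0.00213), Itga7 (adjusted p = 0.037) and Lum (adjusted p = 0.0403) passed 0.05, as Adgrg1 did with DESeq2's Wald test (adjusted p = 0.022). Calcr, the receptor through which type V collagen acts on MuSCs, was at 54.5, 40.2 and 52.96 CPM in WT and 57.96, 64.98 and 54.01 CPM in cD2KO, with a log2 fold change of 0.26 (95% interval -0.21 to 0.73) that did not pass the test.

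Markers of the cell types that could share the sort moved between the groups. Of all genes tested, 5.34% rose and 6.62% fell. Of 15 MuSC markers, 4 rose (26.7%) and none fell, with a summed level of 2196 to 2726 CPM in WT and 2463 to 3972 CPM in cD2KO. Of 14 tested fibroadipogenic and fibroblast markers, 5 fell (35.7%) and 1 rose (7.14%), with a median log2 fold change of -0.82 and a summed level of 3902 to 5438 CPM in WT and 2566 to 4837 CPM in cD2KO. Their receptor Pdgfra was low throughout, averaging 7.70 ± 2.46 CPM in the WT and 3.67 ± 2.47 CPM in the cD2KO mice (SD, n = 3), and Pi16 was at 0 in fl125. The sum of immune markers was lower in all cD2KO mice, with a level of 4679.6 to 8779 CPM in WT and 240.5 to 3034 CPM in cD2KO. Their median log2 fold change was -1.89, with 3 of 15 called lower (20%) and Cx3cr1 at 0 in fl125.

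Of 14 tested endothelial markers 7 fell (50%, beside 6.62% of all genes), with a median log2 fold change of -1.18. Their summed level was 387 to 565 CPM in WT and 311 to 432 CPM in cD2KO. This sum includes Esam, which was not called and averaged 116 CPM in WT and 145 CPM in cD2KO. Tie1, Erg, Cldn5 and Robo4 were at 0 in some libraries. None of 6 tested tenocyte markers passed the test, with a median log2 fold change of -0.55, a summed level of 366 to 1146 CPM in WT and 215 to 919 CPM in cD2KO and Mkx at 0 in some libraries. Of 8 Schwann cell markers 2 fell (25%), with a summed level of 5181 to 8063 CPM in WT and 7338 to 7833 CPM in cD2KO. Itga7 and Calcr stood in the MuSC list as well as among the receptors, and Cspg4 in the mural list as well as among the receptors. Lum and Dcn stood among the fibroblast markers, and Fmod among the tenocyte markers, as well as among the partners. The part of these cell types in the chain levels was not tested.

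**Figure D5:**
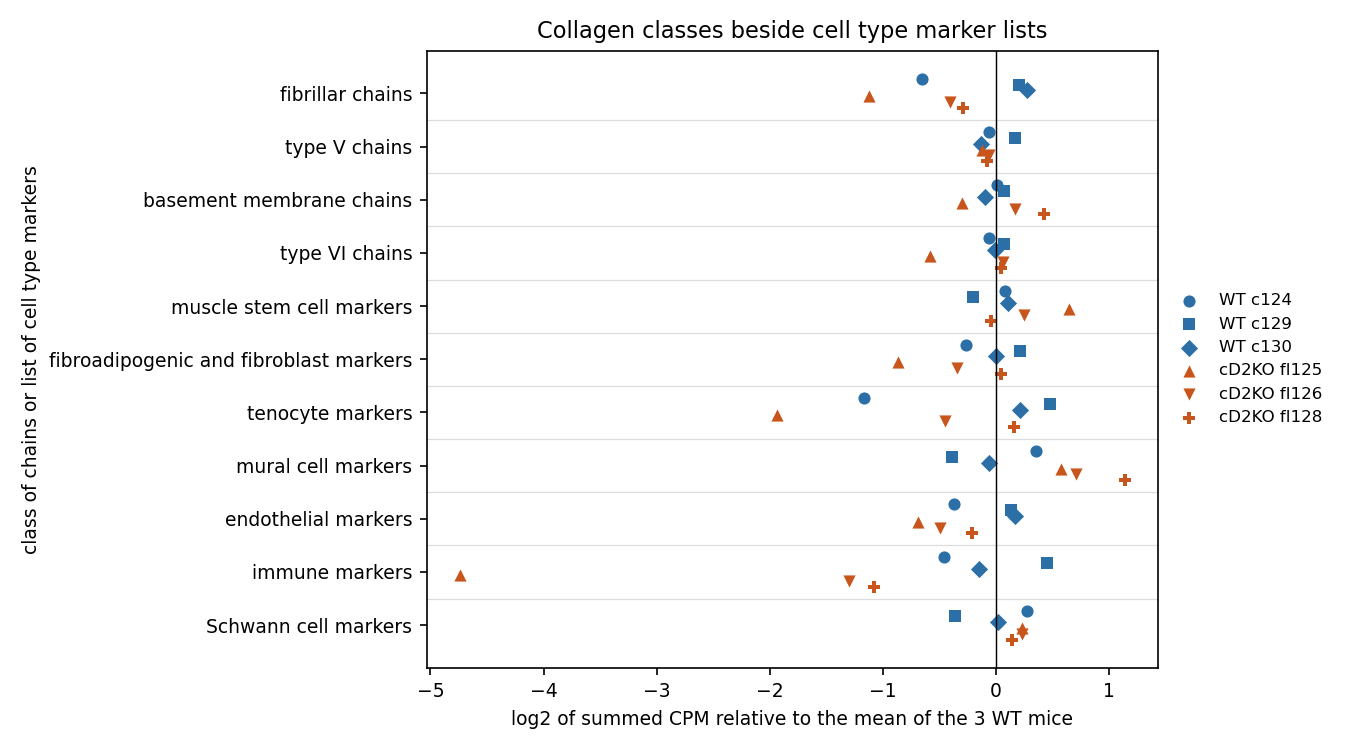
Summed CPM of 4 classes of collagen chains and of 7 lists of cell type markers in each mouse, as the log2 ratio to the mean of the 3 WT mice (x axis, 0 is the WT mean). Fibrillar chains and tenocyte markers are both lowest in c124 and fl125, mural markers are above the WT range in all 3 cD2KO mice, and immune markers are furthest down in fl125.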

How the data were processed

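The 6 libraries, 1 per mouse, hold RNA of sorted qMuSCs of 3 WT and 3 cD2KO mice. Per the labels, the authors demultiplexed the reads with bcl2fastq, aligned them to mm10 with STAR 2.6.0a and counted them per gene with HTSeq 0.9.1 among the tools named. They deposited whole-number counts without normalization. Read position along the transcript, annotation, strand setting and duplicate handling are not given in the sources used here. Symbols and coordinates came from GENCODE M21 (31011 of 31053 identifiers matched), and promoters from RefSeq (GRCm38.p6).

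Mice were grouped by the genotype in the labels. A gene of the deposited table was tested if its counts, after DESeq2 scaling, averaged more than 10 (11633 genes). The test was edgeR's robust quasi-likelihood fit (edgeR 4.0.16, R 4.3.3) with TMM factors on all 6 mice, without covariates, and was checked on simulated data. A gene was called at an unadjusted p under 0.05, and the adjusted p printed are Benjamini-Hochberg values over the 11633 genes. SDs are between mice and intervals of fold changes are 95% intervals. Summed levels and ratios were given without a test. The labels name separate mice, and p-values measure the spread between these libraries.

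Members, classes and lists were chosen with earlier results of these data known. Values in every mouse were given for called chains, the 3 chains with the highest mean CPM in each of 4 classes and the 3 lowest p outside them, and also, chosen after their values were seen, for Col24a1, Col15a1, Col2a1, Col4a3, Col4a5, Col6a5 and Col6a6. Partner genes named were Calcr, Serpinh1, P4ha1, Lox and those called, up to 5 per list and direction. Single marker genes were also picked with their values known. Other settings tried were DESeq2 1.42.0 (Wald test), limma 3.58.1 voom, other scalings, other minimums, non-robust estimation, adjusted p thresholds and leaving out each mouse.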

Additional observations from a re-analysis of the deposited data

How the results depend on the processing

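With 3 mice per group and 2184073 to 3897787 counts per library, a chain with few counts could be told apart only at large fold changes. The cause of each change below was not tested. The 2 lower chains became 4 with no minimum count, 1 to 5 when a mouse was left out, and 0 at an adjusted p under 0.05 or under 0.1 in the same fit. The 1 higher chain became 0 at a minimum mean of 50, where Col4a6 was not among the genes tested, 3 with no minimum, 0 to 4 when a mouse was left out, and 0 at either adjusted threshold. The 2 lower partner genes became 1 to 4 when a mouse was left out and the 2 higher ones 1 to 6, both became 0 at either adjusted threshold, and total count scaling left 1 higher. Without fl125 the calls were Col1a2, Col2a1, Col5a2 and Col6a6 lower and Col11a2, Col18a1, Col4a2 and Col4a6 higher; without fl128 they were Col11a1, Col1a2, Col2a1, Col5a2 and Col8a2 lower and none higher; without c130 they were Col5a2 lower and Col4a6 and Col7a1 higher. Col5a2 was called in each fit, Col1a2 in each but that without c130, and Col4a6 in each that tested it but that without fl128. The log2 ratio of summed type V chains ranged from -0.12 to 0.0321 when a mouse was left out.

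The log2 fold change changed sign with total count scaling for Col19a1 (-0.0489), Col4a1 (-0.0250) and Col5a3 (-0.0129), at a minimum mean of 50 for Col19a1 (-0.0142), with DESeq2 size factors for Col6a3 (0.00162) and with no minimum for Col6a3 (0.00753) and Lox (0.00568). With a mouse left out it changed sign for 18 genes, none of them called with all mice: Col16a1 ranged from -0.31 to 0.18, Col19a1 from -0.25 to 0.25, Col23a1 from -0.0196 to 0.46, Col27a1 from -0.22 to 0.0722, Col4a1 from -0.13 to 0.23, Col4a4 from -0.58 to 0.16, Col4a5 from -0.49 to 0.72, Col5a1 from -0.16 to 0.0857, Col5a3 from -0.0408 to 0.23, Col6a1 from -0.29 to 0.13, Col6a2 from -0.34 to 0.19, Col6a3 from -0.12 to 0.0505, Col7a1 from -0.0633 to 1.58, Col8a1 from -0.18 to 0.54, Col9a2 from -0.50 to 0.20, Lox from -0.78 to 0.27, P4ha1 from -0.39 to 0.10 and Serpinh1 from -0.33 to 0.0706. Apart from fits without a mouse, 291 of the chains' values kept their direction and side of the threshold, 6 changed sign and 3 gained a call. With a mouse left out, 168 of the chains' values kept both, 31 changed sign, 7 gained a call and 2 lost it. No paired analysis was possible because WT and cD2KO are different mice, their numbers only name them in the order listed, and the labels state no litter, batch or day that mice of both groups share.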
